A study of Drosophila melanogaster with 8 samples.

Results

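RNA that co-purified with Sister-of-Sex-lethal (SSX) was compared with RNA recovered in the same way with green fluorescent protein (GFP). The comparison used 5 of the 8 samples of the series, 3 SSX IP libraries and 2 GFP IP libraries, chosen by their labels and count columns. All were from Schneider's line 2 (SL2), a male Drosophila melanogaster cell line of blood-cell character. In both groups the protein carried a FLAG-3xHA tag and was collected with the anti-FLAG M2 antibody, and the RNA was depleted of ribosomal RNA and sequenced in paired ends from a stranded low-input kit. The labels give no promoter, clone, transfection or crosslinking for either group, and 2 SXL IP libraries and 1 input control were not analysed here. Of 17559 genes in the authors' deposited table, 9034 had an adjusted p-value and count as tested. Read counts of each library were at hand for the 947 genes that the authors list as enriched with SSX, which are exactly the genes past a log2 fold change of 2 with an adjusted p below 0.001.

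SSX is the close paralogue of Sex-lethal (SXL), the switch protein of female sex determination in Drosophila, and is not limited to females. Both proteins carry a pair of RNA recognition motifs and bind stretches rich in uridine, such as those near splice sites and in untranslated regions. SXL is best known for regulating the splicing of its own transcript and of transformer, and for repressing msl-2, whose product is the male-limiting subunit of the dosage compensation complex.

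The SSX libraries held 3368793, 4166301 and 4424204 reads over the 947 listed genes, against 20589 and 27047 in the GFP libraries. Normalized counts are these reads divided by size factors, which solve to 2.15, 1.94 and 1.87 in the SSX libraries and to 0.0886 and 0.120 in the GFP libraries. The GFP side had far fewer reads, with a median of 22 per listed gene in the sum of both libraries, no read in 44 listed genes and 1 to 3 reads in 77. Among the SSX libraries, library 1 was the lowest of the 3 for 731 listed genes (77.2%). The median coefficient of variation of normalized counts was 19.9% over the SSX libraries and 21.5% over the GFP libraries.

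The transcript of the bait itself had the highest fold change among all called genes whose normalized counts average 50 or more. The normalized count of ssx (FBgn0024987, X, 1370580 to 1375257, BDGP6) was 13865, 26027 and 22695 in the SSX libraries, against 384 and 307 in the GFP libraries. All SSX libraries were far above both GFP libraries, and library 1 was the lowest of the 3. The authors' deposited table gives a log2 fold change of 5.84 (SE 0.32, adjusted p = 7.6e-73). Reads from the introduced construct cannot be told apart from those of the cell's own ssx transcript in these counts. Sxl, the paralogue's gene (X, 23507 bases), had 3123, 6103 and 5384 with SSX, against 463 and 473 with GFP. The groups did not overlap, and the deposited log2 fold change in the authors' deposited table was 3.31. The related neuronal RNA-binding protein gene elav had 1735, 1977 and 2868 with SSX, against 181 and 83.0 with GFP, again without overlap.

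Of the 9034 tested genes, 2364 (26.2%) were called higher with SSX and 1741 (19.3%) lower at an adjusted p under 0.05 in the authors' deposited table, whose test is of the DESeq2 type. The 947 listed genes were 10.5% of those tested. The median log2 fold change of all tested genes was 0.44, and with fold changes centred on that median the split turned to 1777 higher and 2404 lower. The share of higher genes among the calls was thus 57.6% as deposited and 42.5% after centring, so which direction held more genes depended on the scaling. Large changes were found on both sides: 545 genes were higher and 307 lower by a log2 of at least 3, 106 and 116 by at least 4, and 7 and 35 by at least 5. The list stopped at its threshold without a gap, with fwd (2.0008), Pym (2.0031) and pgant5 (2.0041) just inside and 3 unnamed genes at 1.9997, 1.9978 and 1.9963 just outside.

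In all 947 listed genes the lowest SSX library was above the highest GFP library (100%), by 1.91-fold at the least. An edgeR quasi-likelihood fit to the 956 genes of either deposited list called 953 (99.7%) higher at an adjusted p under 0.05, as many as DESeq2 did. These genes had been selected on this contrast, so the separation describes them and is no further evidence for it. Whether the replicates were grown as separate cultures is not labelled, so the p-values rest on a spread among libraries that may be only technical. In a pulldown, more RNA bound per molecule and more RNA of that gene in the cell cannot be told apart without the input, and a rise and a fall are both relative to the libraries' scaling.

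Genes higher and genes lower with SSX differed in abundance. The higher ones had a median mean normalized count of 221 (quartiles 68.5 and 577), the lower ones 57.1 (26.9 and 150), and all tested genes 40.1. The mean normalized count is the authors' mean over all 7 IP libraries, so it includes the SSX libraries and is not independent of the direction. Below a mean of 10, 6.63% of 2306 genes were called higher and 3.90% lower. Between 30 and 100, lower calls were the more frequent, at 31.4% against 17.7% higher (2165 genes). From 300 to 1000 the order was the opposite, with 71.3% higher and 13.7% lower (940 genes), and from 1000 to 3000 it was 77.2% and 16.8% (316 genes). In the top class, at 3000 and above, 82 of 170 genes were higher (48.2%) and 84 lower (49.4%), so nearly every such gene was called one way or the other. The median standard error of the log2 fold change in the authors' deposited table was 1.11 below a mean of 10 and 0.23 at 3000 and above, and its part in the shares called was not tested.

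**Figure D1:**
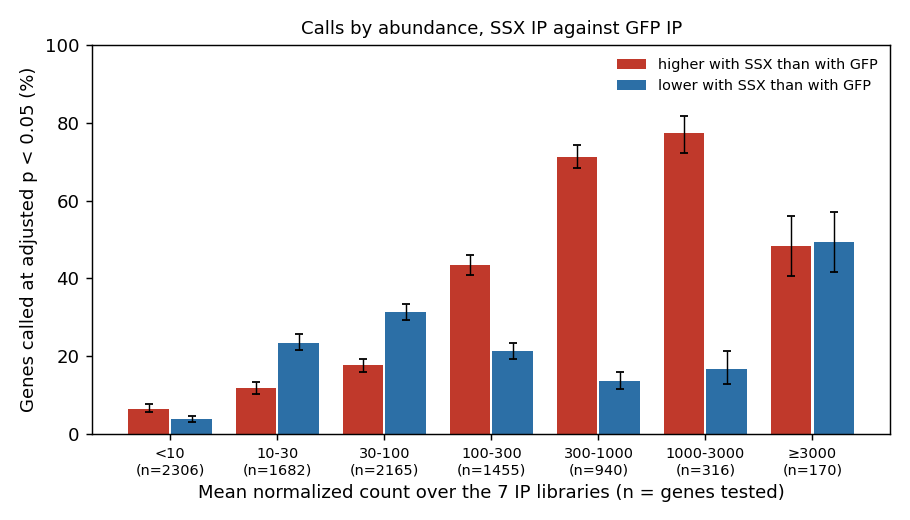
Share of tested genes called higher or lower with SSX (y axis, percent, adjusted p under 0.05 in the authors' deposited table) by mean normalized count over the 7 IP libraries (x axis), with exact 95% binomial intervals that cover counting of genes only. Higher calls peak at 77.2% from 1000 to 3000, and the 2 directions are level, at 48.2% and 49.4%, at 3000 and above.

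To weigh the SSX and GFP levels equally, each gene was also placed by the middle of its SSX and GFP levels on the log scale. These levels are those implied by the deposited mean and the fold changes. The SSX level still enters this scale, so it is not independent of the direction either. For 821 listed genes these implied levels were close to the measured ones, with a median log2 of implied over measured of -0.01 for SSX and 0.06 for GFP. The check took listed genes with GFP reads and a mean of at least 100. Implied levels of unlisted genes, and so of all lower genes, could not be checked. On that scale 20.2% of genes from 30 to 100 were higher and 30.7% lower, and from 300 to 1000 it was 69.9% and 14.1%. At 3000 and above the balance turned, with 34.7% higher and 61.2% lower among 121 genes. On either scale the share called higher was largest from 1000 to 3000.

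The called genes took unlike shares of the 2 groups of libraries. Genes called higher made up 76.4% of the implied normalized total with SSX, against 13.7% with GFP. Genes called lower made up 15.2% with SSX, against 78.2% with GFP. The 4929 genes not called took 8.45% with SSX and 8.08% with GFP. The listed genes alone made up 58.3% with SSX, against 6.80% with GFP. These shares follow from the fold changes that chose the genes and are given as a description of how much of each library the calls concern.

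Next to ssx, the highest fold changes of nuclear coding genes rested on few GFP reads. The uncharacterised genes CG12869 and CG10801, the zinc transporter gene Zip89B and the innexin gene ogre, which encodes a gap junction subunit, had no GFP read. CG12869 had 264, 185 and 303 normalized counts with SSX, at least 17.5-fold over a floor of 3 reads in the GFP group. CG10801, ogre and Zip89B were likewise at least 16.7-fold, 13.0-fold and 8.85-fold higher. Vmat, the vesicular monoamine transporter gene, had 378, 309 and 346 with SSX, against 0 and 8.30 with GFP, the value of 1 read. CG15211 was better covered, with 846, 1467 and 1421 with SSX, against 45.1 and 24.9 with GFP, and a log2 fold change of 4.90 (SE 0.53) in the authors' deposited table. In all of these every SSX library was above both GFP libraries, but their order among each other is not settled by so few GFP reads.

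By kind of RNA, the list held 903 nuclear mRNAs (95.4%, exact 95% interval 93.8 to 96.6), 29 long noncoding RNAs (3.06%), 12 mRNAs of the mitochondrial genome (1.27%) and 3 pseudogenes. Set against the RefSeq annotation, it held 915 of 13962 protein coding genes (6.55%), 21 of 1996 genes of the long noncoding class (1.05%) and 7 of 503 antisense genes (1.39%). None of 262 microRNA, 269 small nucleolar RNA, 312 tRNA or 32 small nuclear RNA genes was listed. Annotated genes include those that SL2 cells do not express, and no biotype was at hand for most unlisted genes, so these shares mix expression with recovery. The kit and the ribosomal depletion also bear on which short RNAs could be counted, and their part was not tested.

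The 12 mitochondrial mRNAs encode respiratory chain and ATP synthase subunits, and mt:CoI, mt:CoIII and mt:Cyt-b were the 3 most abundant RNAs of the list. Their median deposited log2 fold change in the authors' deposited table was 4.53 (range 3.08 to 5.29), against 2.75 for nuclear mRNAs, and 8 of 12 were at 4 or above, against 85 of 903 nuclear mRNAs (9.41%). The cytochrome oxidase subunit mRNA mt:CoI had 147211, 236112 and 278447 normalized counts with SSX, against 7945 and 6202 with GFP. It was higher in every SSX library than in either GFP library, with library 1 again the lowest. The complex I subunit mRNA mt:ND4 had 7555, 11488 and 10568 with SSX, against 237 and 232 with GFP, the highest fold of the 12. The cytochrome b mRNA mt:Cyt-b had 31909, 53399 and 68084 with SSX, against 2359 and 1752 with GFP, and the groups lay far apart. The 2 lowest folds belonged to mt:ND3 and mt:ND6, whose SSX libraries varied the most. The counts of mt:ND3 were 877, 1221 and 285 with SSX, against 67.7 and 83.0 with GFP. Those of mt:ND6 were 487, 737 and 137 with SSX, against 33.9 and 33.2 with GFP. Library 3 was the lowest for both, as in 119 of the 947 listed genes, and in neither gene did the groups overlap. Together the 12 took 21.01, 23.62 and 25.03% of the normalized counts of listed genes in the SSX libraries, against 11.7 and 9.45% in the GFP libraries.

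The listed long noncoding RNAs were few and had high fold changes. They are the 29 genes of that biotype in the authors' list, of which RefSeq calls 21 long noncoding, 7 antisense and 1 protein coding. The 29 had a median log2 fold change of 3.78 (2.25 to 5.44) in the authors' deposited table, and 12 (41.4%) were at 4 or above, against 9.41% of nuclear mRNAs. Of the 29, 14 had at most 3 GFP reads, against 105 of the 903 nuclear mRNAs, and 2 of the 29 and 42 of the 903 had none. With genes without a GFP read set to the bound that a floor of 3 reads allows, the medians were 3.57 and 2.70, and 34.5% and 5.43% were at 4 or above. Below a mean normalized count of 100 the medians were close, at 3.59 for 10 long noncoding RNAs and 3.49 for 111 nuclear mRNAs (3.23 and 2.64 at the bound). From 100 to 300 it was 3.83 (10 genes), against 2.53 (235 mRNAs), from 300 to 1000 it was 4.61 (5 genes), against 2.65 (320 mRNAs), and from 1000 up it was 3.38 (4 genes), against 2.91 (237 mRNAs). They took 1.45, 1.19 and 1.40% of the listed normalized counts with SSX, against 0.855 and 0.828% with GFP.

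The lowest adjusted p among them belonged to Hsromega (3R, 21296127 to 21317836), the heat shock locus whose nuclear RNA forms omega speckles that hold hnRNP proteins. It had 7889, 8062 and 10921 normalized counts in the SSX libraries, against 372 and 382 in the GFP libraries. The SSX libraries were close to each other and all far above GFP, and the log2 fold change in the authors' deposited table was 4.51 (SE 0.27, adjusted p = 6.8e-62). CR43459 (3R, 10093761 to 10101356) followed with 3233, 3432 and 4067 with SSX, against 169 and 174 with GFP. CR33963 (X, 12659462 to 12660632) had 944, 1471 and 2341 with SSX, against 45.1 and 41.5 with GFP, a wider spread but again no overlap. It lies within the span of the coding gene Tis11 (X, 12659415 to 12682554), itself listed at a log2 fold change of 4.49 in the authors' deposited table. How reads were divided between CR33963 and Tis11 is not given in the sources used here, so the 2 are not independent results. At the other end CR43264, only 318 bases long, had 2806, 2334 and 2182 with SSX, against 508 and 432 with GFP, for a log2 fold change of 2.36 in the authors' deposited table.

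The highest fitted folds among the noncoding RNAs rested on 1 GFP read each. CR44179 had 401, 377 and 332 with SSX, against 0 and 8.30 with GFP, where 8.30 is 1 read. The ratio was 77.3 with an exact 95% counting interval of 13.9 to 3055, so its rank is not settled by these counts. CR44619 and CR45139 likewise had 1 GFP read, with ratios of 76.4 (13.7 to 3018) and 77.8 (14.0 to 3071). RefSeq gives 7 of the 29, CR44179 and CR45139 among them, as antisense RNAs, and whether the counting used the strand is not given in the sources used here, so reads of these genes and of their partners on the other strand cannot be told apart. The 3 pseudogenes were CR40354, CR43361 and CR43281, of which CR40354 had 138, 203 and 318 with SSX, against 0 and 8.30 with GFP, the value of 1 read.

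Length separated the listed mRNAs from the annotation. The 903 listed nuclear mRNA genes spanned a median of 7909 bases (quartiles 3718 and 20415), against 2161 (1177 and 5002) for 13949 annotated nuclear coding genes. The share of annotated genes that were listed was 0.335% below 1 kb (9 of 2689), 1.51% from 1 to 2 kb, 6.52% from 2 to 5 kb, 12.4% from 5 to 10 kb, 17.0% from 10 to 20 kb and 22.8% from 20 to 50 kb (161 of 707). It was 21.7% at 50 kb and above, level with the class before it within the exact 95% intervals (17.3 to 26.7 and 19.7 to 26.0). The span counts introns and says nothing of how much of the gene was sequenced.

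Within the list, the fold change was nearly the same in all length classes. The median log2 fold change per length class, shortest to longest, was 2.73, 2.98, 2.67, 2.73, 2.72, 2.81 and 2.83 in the authors' deposited table. With genes without a GFP read at their bound, the lowest and the highest of these medians were 2.53 (2 to 5 kb) and 2.83 (50 kb and above). Over the 903 nuclear mRNA genes Spearman's rho of span and log2 fold change was 0.004, given as a description, since genes share the same 5 libraries. Span did go with abundance, at a rho of 0.42, and the median mean normalized count was 78.5 below 1 kb, 275 from 2 to 5 kb and 827 from 20 to 50 kb. A longer transcript gives more fragments per molecule, and the adjusted p that admits a gene to the list depends on its reads. The part of length, abundance and counting power in the share listed was not tested, since neither lengths nor names were at hand for most unlisted genes.

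**Figure D2:**
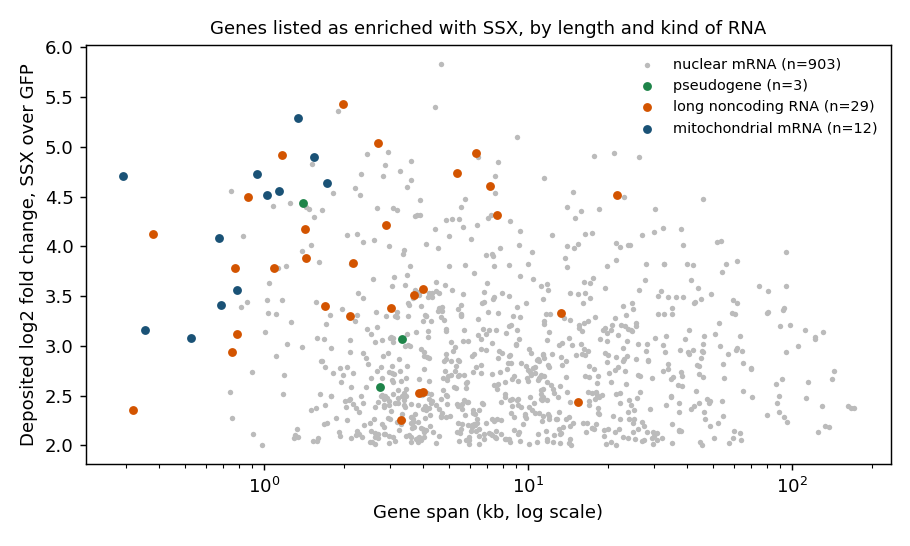
Log2 fold change of SSX over GFP in the authors' deposited table (y axis) against gene span in kb on a log scale (x axis) for the 947 listed genes, coloured by kind of RNA. Nuclear mRNAs have medians between 2.67 and 2.98 in every length class, while mitochondrial mRNAs (median 4.53) and long noncoding RNAs (3.78) lie higher at short spans.

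The longest listed genes were pum (171340 bases), dnc (167328), mbl (162828), mamo (144412) and mgl (141634). pum encodes a translational repressor that binds the 3' ends of mRNAs, and had 4455, 5367 and 5948 normalized counts with SSX, against 948 and 1054 with GFP. The lipoprotein receptor gene mgl was the most abundant of the 5, with 11563, 13873 and 16358 with SSX, against 2246 and 2109 with GFP. For the splicing regulator gene mbl the counts were 968, 1253 and 1460 with SSX, against 271 and 191 with GFP. All 5 kept every SSX library above both GFP libraries, with log2 fold changes between 2.37 and 2.75 in the authors' deposited table. Of the 5 shortest, 3 were the mitochondrial mRNAs mt:ND4L, mt:ND3 and mt:ND6, and the others were CR43264 and CR45623. CR45623, an antisense RNA of 380 bases, had 54.0, 90.6 and 124 with SSX and no GFP read, so it was at least 6.23-fold higher, with 3 reads taken as the limit for the summed GFP libraries.

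The share of annotated genes listed was higher on the X chromosome than on the large autosomes in each length class. Of 2197 annotated coding genes on the X, 308 were listed (14.0%, exact 95% interval 12.6 to 15.5), against 578 of 11645 on chromosomes 2 and 3 (4.96%, 4.58 to 5.37). From 2 to 5 kb it was 13.2% on the X, against 5.15%, and from 20 to 50 kb it was 46.5% (60 of 129), against 17.4%. From 50 kb up the intervals met, at 30.4% (19.9 to 42.7) on the X and 19.8% (14.95 to 25.48) on the large autosomes. The small chromosome 4 had 17 of 80 listed (21.3%, 12.9 to 31.8). Among listed nuclear mRNAs the median log2 fold change in the authors' deposited table was 2.94 on the X, against 2.49 to 2.73 on the 4 large autosome arms. With genes without a GFP read at their bound it was 2.90, against 2.48 to 2.67. These intervals cover counting of genes only, and the denominators are all annotated genes rather than expressed ones. X-linked genes are upregulated in male cells by dosage compensation, and their RNA level in SL2 cells was not analysed here.

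**Figure D3:**
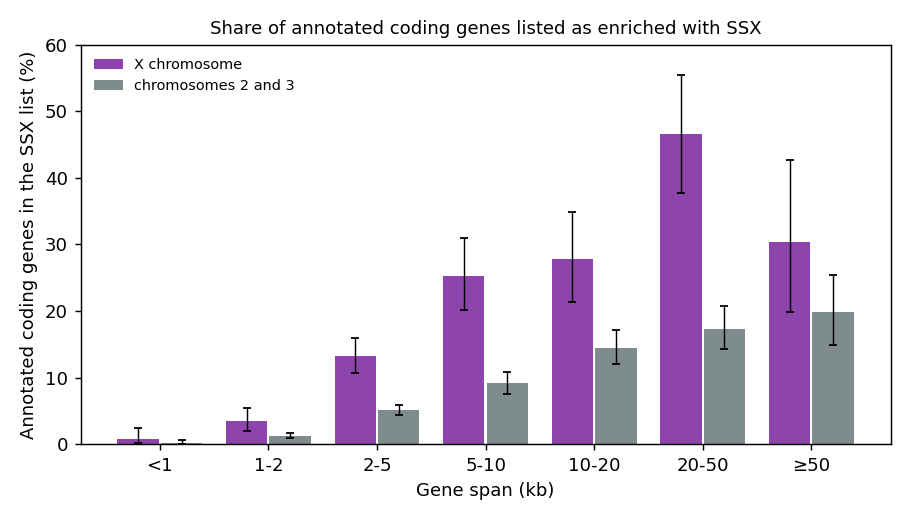
Share of annotated nuclear coding genes in the SSX list (y axis, percent) by gene span in kb (x axis), for the X chromosome and for chromosomes 2 and 3, with exact 95% binomial intervals over genes. The X bars are higher in all 7 classes, by the most from 20 to 50 kb (46.5% against 17.4%), and the intervals overlap below 1 kb and from 50 kb up.

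By function, the largest shares listed were those of the bait with its ELAV relatives (3 of 5), dosage compensation (5 of 9), EGFR and Ras signalling (8 of 17), the Notch pathway (7 of 18) and splicing regulators (9 of 24), and the smallest those of ribosomal proteins, the nuclear respiratory chain and the proteasome. The first set includes ssx itself, whose reads may come from the construct, so its count is no result about function. The interval of that set, 14.7 to 94.7%, includes the 17.0% of its length class. Members of 30 function lists were looked up by symbol, and the share listed was read against the 6.55% of all annotated coding genes. The lists were chosen with earlier results of these data known, and membership reflects expression, length and depth as well as recovery. For most lists, the share of all annotated coding genes in the length class of the list's median gene is given beside the count.

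Dosage compensation genes were listed in 5 of 9 cases, against 6.52% of all genes of that length. The male-limiting subunit gene msl-2, the known translational target of SXL, had 2326, 3692 and 3242 with SSX, against 147 and 116 with GFP. It lay far above GFP in every library, with a log2 fold change of 4.47 (SE 0.35, adjusted p = 4.0e-35) in the authors' deposited table. msl-1, which encodes the scaffold of the complex, had 1761, 2652 and 3179 with SSX, against 305 and 374 with GFP. The acetyltransferase gene mof and the chromodomain gene msl-3 were also listed. The long noncoding RNA gene roX1 was tested but neither listed nor called, at a mean normalized count of 8.31. Its log2 fold change was 2.14 (SE 1.09, adjusted p = 0.096) in the authors' deposited table. Unr, which encodes the partner of SXL in the repression of msl-2, was at 2477, 2835 and 4280 with SSX, against 801 and 747 with GFP, just inside the list at a log2 of 2.02 in the authors' deposited table.

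Sex determination genes were listed in 7 of 19 cases (36.8%, exact interval 16.3 to 61.6): Stat92E, fru, emc, fl(2)d, gro, her and Phf7. The list's median gene spans 4930 bases, and 6.52% of all genes from 2000 to 5000 bases were listed. That median lies close to the class edge, and from 5000 to 10000 bases the share was 12.4%, also below the interval. From 10000 to 20000 bases it was 17.0%, within the interval. The listed members span 2507 (her) to 131314 bases (fru), so no single class matches them all. The courtship and sex-specific splicing target fru had 2352, 2977 and 3748 with SSX, against 305 and 357 with GFP. The corepressor gene gro, whose product represses early Sxl transcription, had 843, 1232 and 1300 with SSX, against 124 and 216 with GFP. fl(2)d, a cofactor of Sxl splicing in the m6A writer complex and the single listed gene of the 9 in the m6A list, had 983, 1202 and 1268 with SSX, against 260 and 149 with GFP. In each of the 3 the groups were separate, and library 1 was the lowest of the SSX libraries.

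SR and hnRNP splicing regulators were listed in 9 of 24 cases, against 12.4% of all genes of that length. Hrb27C, an hnRNP A/B protein gene, was among the most abundant listed mRNAs at 21145, 24391 and 35976 with SSX, against 2641 and 2142 with GFP. The sqd gene, for an hnRNP that localises mRNAs in the oocyte, had 11786, 13460 and 18504 with SSX, against 2212 and 2192 with GFP. The KH-domain gene ps had 8967, 12896 and 12537 with SSX, against 1524 and 1386 with GFP. Library 1 was lowest for all 3, and the groups were far apart. The remaining 6 were Hrb98DE, qkr58E-1, Rb97D, mub, qkr58E-2 and how, whose log2 fold changes ran between 2.05 and 2.74 in the authors' deposited table. Of 17 small RNA pathway genes 1 was listed, AGO1, which encodes the microRNA Argonaute and had 4213, 4841 and 6484 with SSX, against 587 and 664 with GFP.

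**Figure D4:**
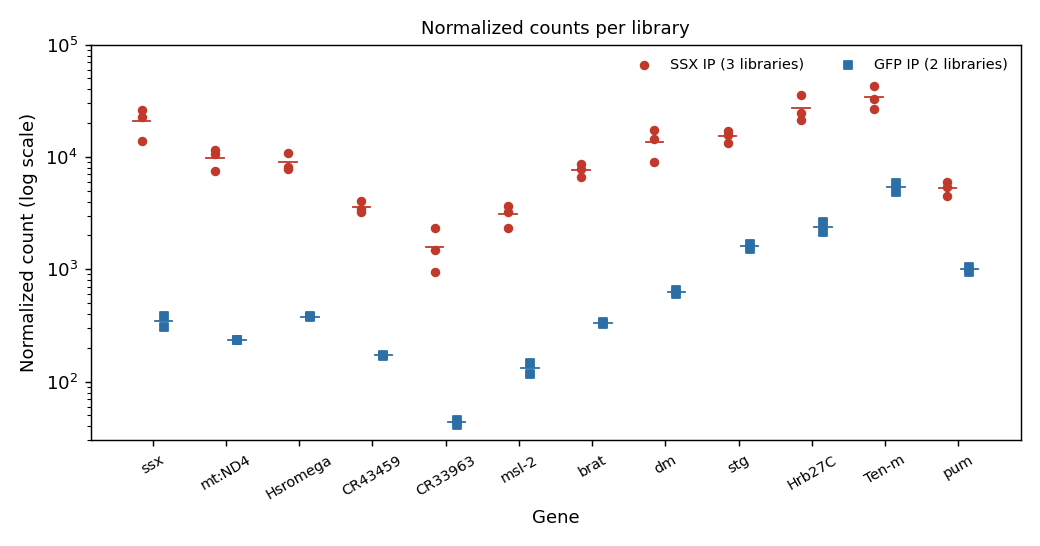
Normalized counts per library on a log scale (y axis) for named listed genes (x axis), with 3 SSX IP libraries as circles at the left and 2 GFP IP libraries as squares at the right of each gene. In every gene shown all SSX points are above both GFP points, and ssx has the widest gap (13865 to 26027 with SSX, 307 and 384 with GFP).

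Signalling pathways contributed receptors, kinases and feedback inhibitors. EGFR and Ras signalling had 8 of 17 genes listed, against 17.0% of all genes of that length. The feedback inhibitor gene sty (sprouty) was one of the most abundant listed mRNAs, with 23295, 28055 and 39021 with SSX, against 3194 and 3346 with GFP. The repressor gene ttk, a zinc finger protein gene downstream of Ras, had 1903, 2581 and 2575 with SSX, against 305 and 315 with GFP, and the phosphatase gene csw had the largest log2 fold change of the 8, 3.86 in the authors' deposited table. Ras85D itself, the small GTPase gene, was at the edge of the list with 623, 594 and 1042 with SSX, against 192 and 166 with GFP. All 3 were without overlap between groups.

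The Notch pathway had 7 of 18 genes listed (38.9%), against 12.4% of all genes of that length, among them the receptor N, its ligand Ser, the protease gene kuz and the ubiquitin ligase genes neur and dx. N had 2313, 3119 and 3168 with SSX, against 655 and 407 with GFP. The log2 fold changes of the 7 ran from 2.09 for the transcription factor gene Su(H) to 3.53 for dx in the authors' deposited table. JAK-STAT had 4 of 11 listed (exact 95% interval 10.9 to 69.2%), insulin and TOR 4 of 13 (9.09 to 61.4%) and Hedgehog 3 of 13 (5.04 to 53.8%), all intervals that include the 12.4% of their length class. Wnt had 3 of 16 (4.05 to 45.6%), which includes the 17.0% of its length class, and Toll and IMD 3 of 16 (4.05 to 45.6%), which includes the 6.52% of its own. The insulin receptor gene InR had 2152, 2431 and 3267 with SSX, against 282 and 166 with GFP. The Wnt kinase gene sgg had 2650, 3292 and 3787 with SSX, against 463 and 365 with GFP. Both stood well above GFP in every library, by a log2 of 3.52 and 2.95 in the authors' deposited table.

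Germ line regulators had 3 of 15 listed (pum, osk and Phf7), Polycomb and Trithorax genes 4 of 25 (skd, Scm, Pc and pho), and basement membrane and hemocyte genes 1 of 20. Their intervals, 4.33 to 48.1%, 4.54 to 36.1% and 0.127 to 24.9%, all include the 12.4% of their length class. Innexins had 1 of 8 listed (0.316 to 52.7%), which includes the 6.52% of theirs. The Mediator subunit gene skd, the most abundant of the Polycomb and Trithorax genes listed, had 2770, 3055 and 3807 with SSX, against 621 and 506 with GFP, with no overlap.

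Cell cycle drivers were listed in 7 of 23 cases, against 6.52% of all genes of that length. The mitotic phosphatase gene stg had 13382, 17061 and 15795 with SSX, against 1512 and 1685 with GFP. The replicates were tight in both groups, and stg had one of the lowest adjusted p-values of the list, 1.3e-58 in the authors' deposited table. The others were CycE, CycB, dap, rap, CycD and twe. The growth regulator genes brat and dm (Myc) had even larger folds. brat, a translational repressor gene of 45943 bases, had 6670, 8589 and 7839 with SSX, against 327 and 340 with GFP, and a log2 fold change of 4.47 (adjusted p = 4.5e-71) in the authors' deposited table. dm had 9059, 14464 and 17445 with SSX, against 655 and 598 with GFP. In both genes the lowest SSX library was over 10-fold above the highest GFP library.

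Developmental transcription factors were listed in 16 of 55 cases (29.1%), a share whose interval (17.6 to 42.9) includes the 22.8% of all genes of their length. The zinc finger gene zfh1 was the most abundant, with 16231, 21117 and 18447 with SSX, against 2810 and 2690 with GFP. The ecdysone receptor gene EcR had 2755, 3304 and 4657 with SSX, against 271 and 399 with GFP, and its partner gene usp had 961, 1288 and 1334 with SSX, against 102 and 125 with GFP. The groups were separate for all 3. Axon guidance and adhesion genes were listed in 10 of 48 cases (20.8%), again near the 22.8% of their length class. The teneurin gene Ten-m was the most abundant listed nuclear mRNA, with 26621, 42978 and 32671 with SSX, against 4864 and 5903 with GFP. The integrin gene mys had 4659, 6207 and 6028 with SSX, against 655 and 548 with GFP, so both stood clear of GFP. Neuronal channels and transporters were listed in 3 of 36 cases (8.33%), below the 22.8% of their length class, with an interval of 1.75 to 22.5.

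Housekeeping classes held few listed genes. None of 93 cytosolic ribosomal protein genes was listed, which allows a share of up to 3.23% by a limit of 3 genes (exact upper bound 3.89%), where genes of that length were listed at 1.51%. None of 89 nuclear genes of the respiratory chain and none of 48 proteasome genes was listed, which allows up to 3.37% and 6.25% by the same limit (exact upper bounds 4.06% and 7.40%). All 3 upper bounds lie above the 1.51% of that length class, a share over annotated genes whether expressed or not. The part of length, expression and abundance in these zeros was not tested. Histones had 1 of 120 listed (0.833%, interval 0.0211 to 4.56%), where genes of that length were listed at 0.335%. It was the replacement histone gene His3.3B at 6106, 8401 and 10693 with SSX, against 1117 and 1104 with GFP. Translation factors had 2 of 52 listed (3.85%), the cap-binding repressor gene 4EHP and Rbp2, and RNA polymerase with general transcription factors 3 of 56 (5.36%), where genes of that length were listed at 1.51%. The actin, tubulin and cytoskeleton list had 1 of 25 and the chaperone list 3 of 28 (10.7%), where genes of that length were listed at 6.52%. The intervals of these 4 lists, 0.469 to 13.2%, 1.12 to 14.9%, 0.101 to 20.4% and 2.27 to 28.2% in the same order, all include the share of their length class. Among the chaperones, Hsc70-3, which encodes one of the endoplasmic reticulum, was abundant at 19888, 30713 and 42133 with SSX, against 3081 and 2690 with GFP. Most of the members that were not listed have no name among the deposited rows, so whether they were lower, unchanged or untested was not analysed here.

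**Figure D5:**
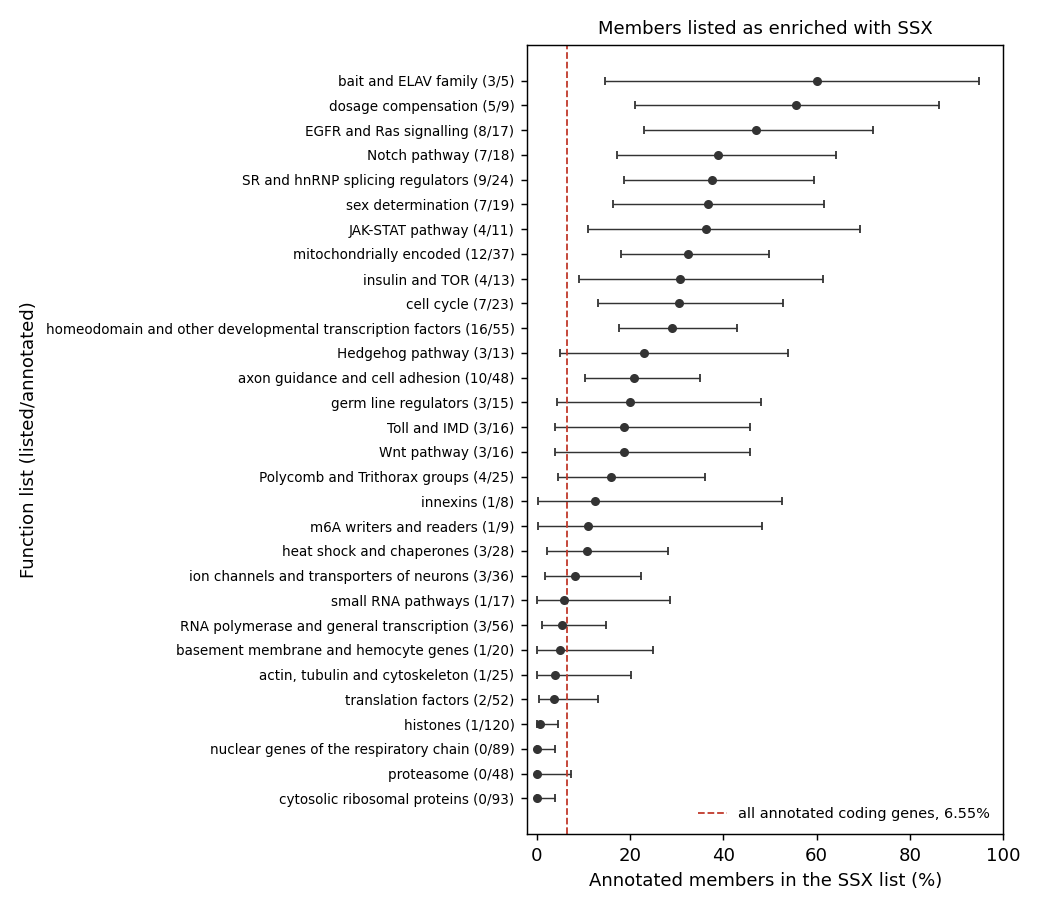
Share of annotated members that are in the SSX list (x axis, percent) for each function list (y axis, with listed over annotated members), with exact 95% binomial intervals over genes, and the 6.55% of all annotated coding genes as a dashed line. Bait and ELAV relatives (3 of 5, with ssx itself among the 3) and dosage compensation (5 of 9) lead, and ribosomal proteins, the nuclear respiratory chain and the proteasome are at 0.

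The deposited list also carries gene ontology terms, for 847 of its genes, and these classes were picked after the terms had been counted. The nucleus was the place of 207 (24.4%) and the plasma membrane of 93. Transcription factor activity was given for 57 genes, protein kinase activity or phosphorylation for 49, mRNA binding for 32, activity as a GTPase or as a GTPase activator for 31, and splicing or its regulation for 23. A single gene, mRpS5 of the mitochondrial ribosome, carried the terms of the ribosome or of translation. Negative regulation of translation was given for 13, among them AGO1, pum, sqd, Sxl, Paip2 and msi. The mRNA-binding class included Imp, with 7307, 9705 and 11709 with SSX, against 914 and 747 with GFP, and Syp, with 6103, 9231 and 11079 with SSX, against 722 and 548 with GFP. Both encode RNA-binding proteins known for opposing gradients in fly neural stem cells, and both were far above GFP in every library. No share of unlisted genes with these terms was at hand, so no class is called over-represented.

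Among the genes lower with SSX few could be named, because names came with the list of enriched genes. RefSeq synonyms gave names to 63 tested genes outside the list, of which 12 were higher, 6 lower and 45 not called. Of all tested genes, listed ones included, 26.2% were higher and 19.3% lower. These 63 leave out the listed genes, so their counts are no result about kinds of RNA. An alpha-tubulin ID that RefSeq synonyms place under both alphaTub84B and alphaTub84D had implied levels of 318 with SSX, against 1785 with GFP, and a log2 fold change of -2.49 (adjusted p = 1.6e-31) in the authors' deposited table. Idgf3, which encodes a secreted chitinase-like growth factor, had implied levels of 181 with SSX, against 847 with GFP, at a log2 of -2.22 in the authors' deposited table. LanA, which encodes a laminin chain of the basement membrane, was abundant and lower, with implied levels of 3027 with SSX, against 6164 with GFP. CG2200, snama and Swim completed the 6, at -1.79, -1.03 and -0.62 in the authors' deposited table. The 2 lowest fold changes of all belonged to unnamed IDs, FBgn0036714 at -8.54 (implied 37.3 with SSX, against 13863 with GFP) and FBgn0031549 at -7.84 (77.4 with SSX, against 17751 with GFP) in the authors' deposited table. Both implied levels were over 10000 with GFP and under 100 with SSX. The 6 most abundant lower genes were unnamed IDs too. Their mean normalized counts ran from 17289 to 168507, and their log2 fold changes from -3.75 to -0.88 in the authors' deposited table. What kinds of RNA they are was not analysed here.

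SL2 cells resemble hemocytes, and of 15 hemocyte marker symbols 1 was listed, the GATA factor gene srp. It had 4726, 6162 and 5017 normalized counts with SSX, against 1004 and 905 with GFP, which is a level well above 0 in both groups. Of other cell types' marker symbols, elav (1 of 5 neuronal), osk (1 of 6 germ line) and Mef2 (1 of 3 muscle) were listed, and none of 3 gut and 3 fat body symbols. Of all annotated coding genes 6.55% were listed, and counts in sets this small are no result about cell identity. Symbols rather than genes were counted, and a hemocyte gene and a gut gene each appear under an alternative name as well. osk had 550, 575 and 468 with SSX, against 0 and 24.9 with GFP, which is 3 reads, at a ratio of 37.0 with a counting interval of 12.7 to 179. Mef2 had 400, 513 and 672 with SSX, against 102 and 149 with GFP. The levels of the unlisted markers were not analysed here, and the part of other cells in these results was not tested.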

How the data were processed

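The build BDGP6 and the tools TopHat2, Trimmomatic, featureCounts, DESeq2 and DESeq are named in the submitters' processing notes without a version or role, and the strand setting of the counting is not given in the sources used here. The authors deposited a table of 17559 genes with, per the file headers, a mean normalized signal, a log2 fold change with its standard error, the score of the test, and the raw and adjusted p-value. The fold changes look moderated, since standard errors of low genes level off. A second deposited list gives the authors' read counts per library for 947 genes; 9 further value columns were not used. Size factors were solved by least squares from these counts and the deposited means, and counts were divided by them. Counts were at hand for listed genes only, so the calls are those of the authors' deposited table. GFP columns are numbered 2 and 3 while the sample titles count from 1, so a column stands only for its group.

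As a check of how calls depend on libraries, edgeR 4.0.16 (quasi-likelihood, R 4.3.3, tested on simulated data) and DESeq2 1.42.0 were run on 956 genes of either deposited list with the authors' size factors. Implied group levels were solved from the deposited mean of 7 libraries and both fold changes against GFP. Listed genes were matched to RefSeq (assembly Release 6 plus ISO1 MT) by symbol or synonym, and 6 by position, 946 of 947 in all. Binomial intervals are exact (Clopper-Pearson, 95%), the limit given for a count of 0 is 3 counts of the total, and intervals and floors cover counting error only. For a gene without GFP reads the fold is a bound, from 3 reads summed over the GFP libraries. Same-numbered libraries did not deviate together (r = 0.05 over 675 genes), and numbers were not taken to pair libraries. With so few GFP reads, counting noise could hide a shared deviation, so this does not settle the pairing.

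Genes were named by a rule: the 12 highest and lowest fold changes with a mean of at least 50, the 6 most abundant called genes per direction, the 3 of lowest adjusted p per other biotype, up to 4 members per function list, and the 5 longest and 5 shortest. Unnamed IDs were limited to 2. The members, lists and markers were chosen with earlier results of these data known, and brat, dm, Imp, Syp, genes named for an ontology class, and members beyond 4 of a function list were added after their values were seen. Sequences and uridine runs were not analysed here. Python 3.11.15 with pandas 2.3.3, numpy 2.4.6, scipy 1.17.1 and matplotlib 3.10.9 was used.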

Additional observations from a re-analysis of the deposited data

How the results depend on the processing

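At an adjusted p under 0.001 the authors' deposited table gave 1442 genes higher and 922 lower with SSX, and among genes whose mean was 100 or above it gave 576 lower and 1628 higher, a share of higher calls of 73.9%. A minimum log2 fold change of 1 (2209 and 1622) and adjustment over every gene with a p-value (2229 and 1615) moved the counts by under 1.5 times, as did centring, which turned the split to 1777 and 2404. In the selected genes, edgeR and DESeq2 each called 953 of 956 higher, and the filter of 10 GFP reads left 672 of 675. With scaling by TMM over the listed genes, 103 were higher and 43 lower, as follows from scaling on genes chosen for being high. Leaving out each library in turn gave 949 to 954, where a fit with 1 GFP library takes its spread from the SSX libraries and assumes that the lone GFP library varies like them. The replicate block on library numbers 2 and 3 gave 951, but whether the numbers pair the libraries is not labelled. Of the shares, 5 were rerun under 1 alternative each. Those called higher below a mean of 10 and from 1000 up stayed within their binomial intervals under a minimum log2 fold change of 1, and so did the coding, long noncoding and 20 kb shares of the list under a minimum mean of 100. Precision is limited by the GFP libraries, which hold under 1% of the reads of the SSX libraries over the listed genes.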
